A study of Mus musculus with 9 samples.

Results

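The axon guidance ligands and receptors of mouse neural stem cells were taken as every row of the expression table whose gene symbol belongs to the semaphorins of classes 3 to 7, the plexins, the neuropilins, the ephrins, the Eph receptors, the Slits, the Robos or the Unc5 receptors, or is Dcc, Neo1, Ntn1 or Ntn4. This gave 68 of 23420 genes. The rule went by name and used no measured value, but it was set with earlier results of these data known. The cells came from the hippocampus of 2-day-old wild-type C57BL/6J mice and were grown in culture, and the treatments were given in a medium that lacked the growth factors bFGF and EGF, in which the cells can differentiate. There were 3 libraries of cells given 3 µM NAT, a compound the labels describe only as a small molecule, 3 libraries of cells given 3 µM P7C3-A20, an aminopropyl carbazole known for favouring the survival of newborn neurons, and 3 libraries of cells given the vehicle DMSO. All groups shared the strain, the genotype, the age and the medium. The libraries of each group are labelled as biological replicates, but not whether each came from its own culture or litter, and p-values reflect only how far these libraries spread.

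Guidance cues are secreted or membrane-bound proteins that attract or repel growing axons and migrating cells through receptors on their surface. Semaphorins signal through plexins, with neuropilins as co-receptors for the secreted class 3 members. Ephrins are bound to the membrane and signal through the Eph receptor tyrosine kinases on neighbouring cells, Slits repel through Robo receptors, and netrins act through Dcc and Neo1 or, for repulsion, through Unc5 receptors. In the postnatal hippocampus the same families are known to take part in the migration and neurite growth of newborn neurons and in the proliferation of their progenitors.

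The members differed widely in level, and their start regions differed in the number of CG pairs, the dinucleotide in which mammalian DNA is methylated. RefSeq promoter windows (GRCm38.p6, 250 bases before to 50 bases after the start) were found for 58 of the 68 members, and 46 of these had a single start. The windows below pair, at the CG-rich end, an abundant member with a nearly undetected one and, at the CG-poor end, a moderately expressed member with a weakly expressed one. They were picked for these extremes. Capitals mark CG pairs. Neo1, a netrin and RGM receptor, has its window at chr9:59036392-59036691 on the minus strand, with 54 CG pairs and a mean of 91.5 TPM (a transcript abundance scaled by gene length and by library, so that levels of different genes can be set side by side) over the 9 libraries. Epha8, an Eph receptor, has its window at chr4:136956767-136957066 on the minus strand, with 56 CG pairs and a mean of 0.0232 TPM. Sema3a, a secreted repellent, has its window at chr5:13396534-13396833 on the plus strand, with 2 CG pairs and a mean of 18.7 TPM. Robo4, known mainly from vascular endothelium, has its window at chr9:37401722-37402021 on the plus strand, with 2 CG pairs and a mean of 0.408 TPM.
Neo1: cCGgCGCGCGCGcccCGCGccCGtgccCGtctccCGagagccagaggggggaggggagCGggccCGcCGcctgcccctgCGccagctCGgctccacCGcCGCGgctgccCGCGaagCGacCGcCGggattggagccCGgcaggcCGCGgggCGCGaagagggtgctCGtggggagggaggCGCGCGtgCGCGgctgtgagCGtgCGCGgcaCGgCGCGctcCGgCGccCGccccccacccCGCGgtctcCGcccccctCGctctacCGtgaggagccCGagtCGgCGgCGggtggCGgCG
Epha8: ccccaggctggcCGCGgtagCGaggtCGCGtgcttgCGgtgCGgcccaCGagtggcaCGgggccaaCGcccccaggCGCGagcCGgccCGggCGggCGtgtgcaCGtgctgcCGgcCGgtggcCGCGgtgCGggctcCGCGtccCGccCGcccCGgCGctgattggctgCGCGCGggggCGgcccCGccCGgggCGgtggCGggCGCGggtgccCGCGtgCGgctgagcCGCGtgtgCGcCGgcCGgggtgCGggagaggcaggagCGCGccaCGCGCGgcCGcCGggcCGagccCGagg
Sema3a: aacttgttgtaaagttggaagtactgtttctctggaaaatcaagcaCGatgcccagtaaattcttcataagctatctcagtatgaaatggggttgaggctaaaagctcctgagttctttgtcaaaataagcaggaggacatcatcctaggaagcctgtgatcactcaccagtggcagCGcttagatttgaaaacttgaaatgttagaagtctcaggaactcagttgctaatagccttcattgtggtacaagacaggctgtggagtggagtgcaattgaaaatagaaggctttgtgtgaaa
Robo4: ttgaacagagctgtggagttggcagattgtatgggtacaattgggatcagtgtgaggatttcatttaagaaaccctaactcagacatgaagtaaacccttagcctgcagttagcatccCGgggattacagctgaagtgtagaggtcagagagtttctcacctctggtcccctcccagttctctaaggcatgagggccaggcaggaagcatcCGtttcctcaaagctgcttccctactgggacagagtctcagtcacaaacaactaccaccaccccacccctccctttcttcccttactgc

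The motif counted was CG, which reads the same on both strands, and 94.6% of the 32851 promoter windows in the RefSeq table hold at least 1. As many CG pairs as in the Neo1 window or more were present in 0.347% of those windows, and as many as in the Epha8 window or more in 0.195%. Only 2 CG pairs or fewer were present in 23.3% of them. Among the 46 members with a single start, the median was 24 CG pairs in the 26 members of at least 10 TPM, 26.5 in the 10 members between 1 and 10 TPM and 13 in the 10 members under 1 TPM. Over all genes with a single start the medians at these levels were 23, 17 and 3 CG pairs. The weakly expressed members had more CG pairs at the median than weakly expressed genes in general, a description of letters in a window and not a measure of methylation.

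**Figure D1:**
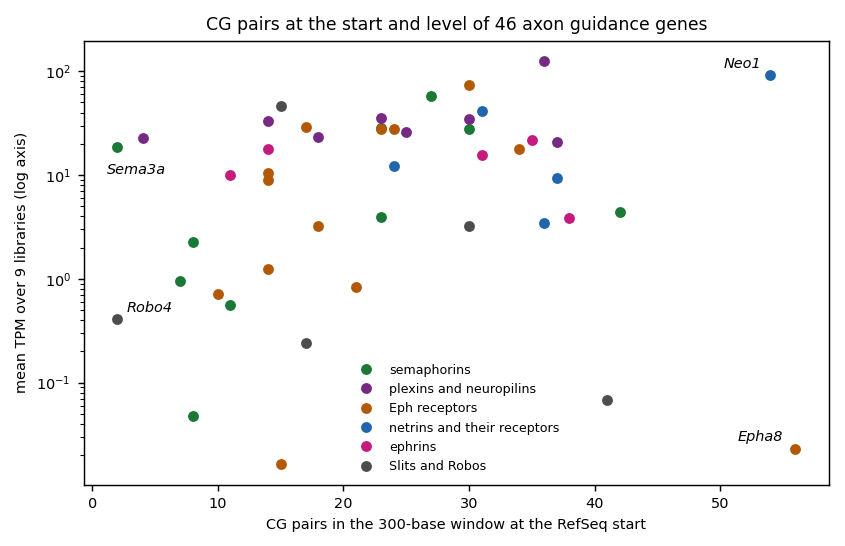
Number of CG pairs in the 300-base RefSeq start window (x axis) and mean TPM over 9 libraries (y axis, log scale) for the 46 axon guidance genes with a single start, coloured by family. Neo1 and Epha8 lie at the CG-rich end with 91.5 and 0.0232 TPM, and Sema3a and Robo4 at the CG-poor end with 18.7 and 0.408 TPM.

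Library depth, from whole reads recovered out of the steps in the TPM values, was 12994081 to 13803959 reads in NAT, 15885313 to 17217584 in P7C3-A20 and 12028821 to 14109316 in DMSO libraries. All 10 progenitor markers of the labelled cell type reached 1 TPM on average, with a summed level of 16560 to 16940 TPM in NAT, 16050 to 16580 TPM in P7C3-A20 and 17330 to 17750 TPM in DMSO libraries. All 10 astrocyte markers, 9 of 10 oligodendrocyte lineage markers and 8 of 10 neuron markers also reached 1 TPM on average. In a bulk sample, fewer cells of a type and less RNA per cell cannot be told apart. None of 10 microglial and none of 8 mural and fibroblast markers reached 1 TPM, with Cx3cr1, Trem2, Ctss and Lum listed at 0. Of 10 endothelial markers 3 reached 1 TPM, while Cdh5 and Cldn5 were listed at 0. The summed endothelial level was 7.94 to 9.58 TPM in NAT, 8.06 to 8.28 TPM in P7C3-A20 and 7.58 to 7.64 TPM in DMSO libraries. DMSO thus lay highest for the progenitor sum and lowest for the endothelial sum. Fabp7 and Vim, with means of 11520 and 3791 TPM, made up most of the progenitor sum. Flt1, with a mean of 4.56 TPM, made up most of the endothelial sum. Oligodendrocyte lineage markers summed to 3479 to 3632 TPM in NAT, 3633 to 4205 TPM in P7C3-A20 and 3647 to 3800 TPM in DMSO libraries, lowest in NAT. Proliferation markers summed to 1242 to 1287 TPM in NAT, 1058 to 1142 TPM in P7C3-A20 and 1079 to 1267 TPM in DMSO libraries, higher in every NAT than in every P7C3-A20 library. The part of these in the differences below was not tested.

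A mean of at least 10 TPM was reached by 37 of the 68 axon guidance genes (54.4%), against 42.8% of all genes in the table. Another 20 lay between 1 and 10 TPM and 11 under 1 TPM. None was at 0 in all 9 libraries. The most abundant were Plxnb2 at 166 TPM, a class B plexin above 95.05% of all genes, the transmembrane semaphorin Sema6d at 140.1 TPM and Plxnb1, the plexin known as the receptor of Sema4d, at 126 TPM. These were the only members at 100 TPM or more on average. Ntn1, the prototype secreted netrin, followed at 97.2 TPM, Sema6a at 93.6 TPM, Neo1 at 91.5 TPM and Epha5 at 74.4 TPM.

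The filter used for testing, 3 or more libraries at 1 TPM or above, kept 58 members. Just inside it lay Sema4f with a mean of 0.953 TPM, and just outside it Sema3f with 0.875 and Epha10 with 0.834 TPM. The other members outside were Epha2, Sema3e, Robo4, Robo3, Slit3, Sema3g, Epha8 and Epha6. Several of these are receptors or ligands with well-known roles elsewhere, such as Robo3 in commissural axons and Robo4 in blood vessels. Slit3 had no read in 2 libraries, Sema3g in 3, Epha8 in 5 and Epha6 in 6. For these genes a count of 0 allows levels of up to 0.104 to 0.13 TPM in Slit3, 0.141 to 0.19 in Sema3g, 0.11 to 0.149 in Epha8 and 0.115 to 0.166 in Epha6, taking 3 reads as the limit and covering counting error only.

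**Figure D2:**
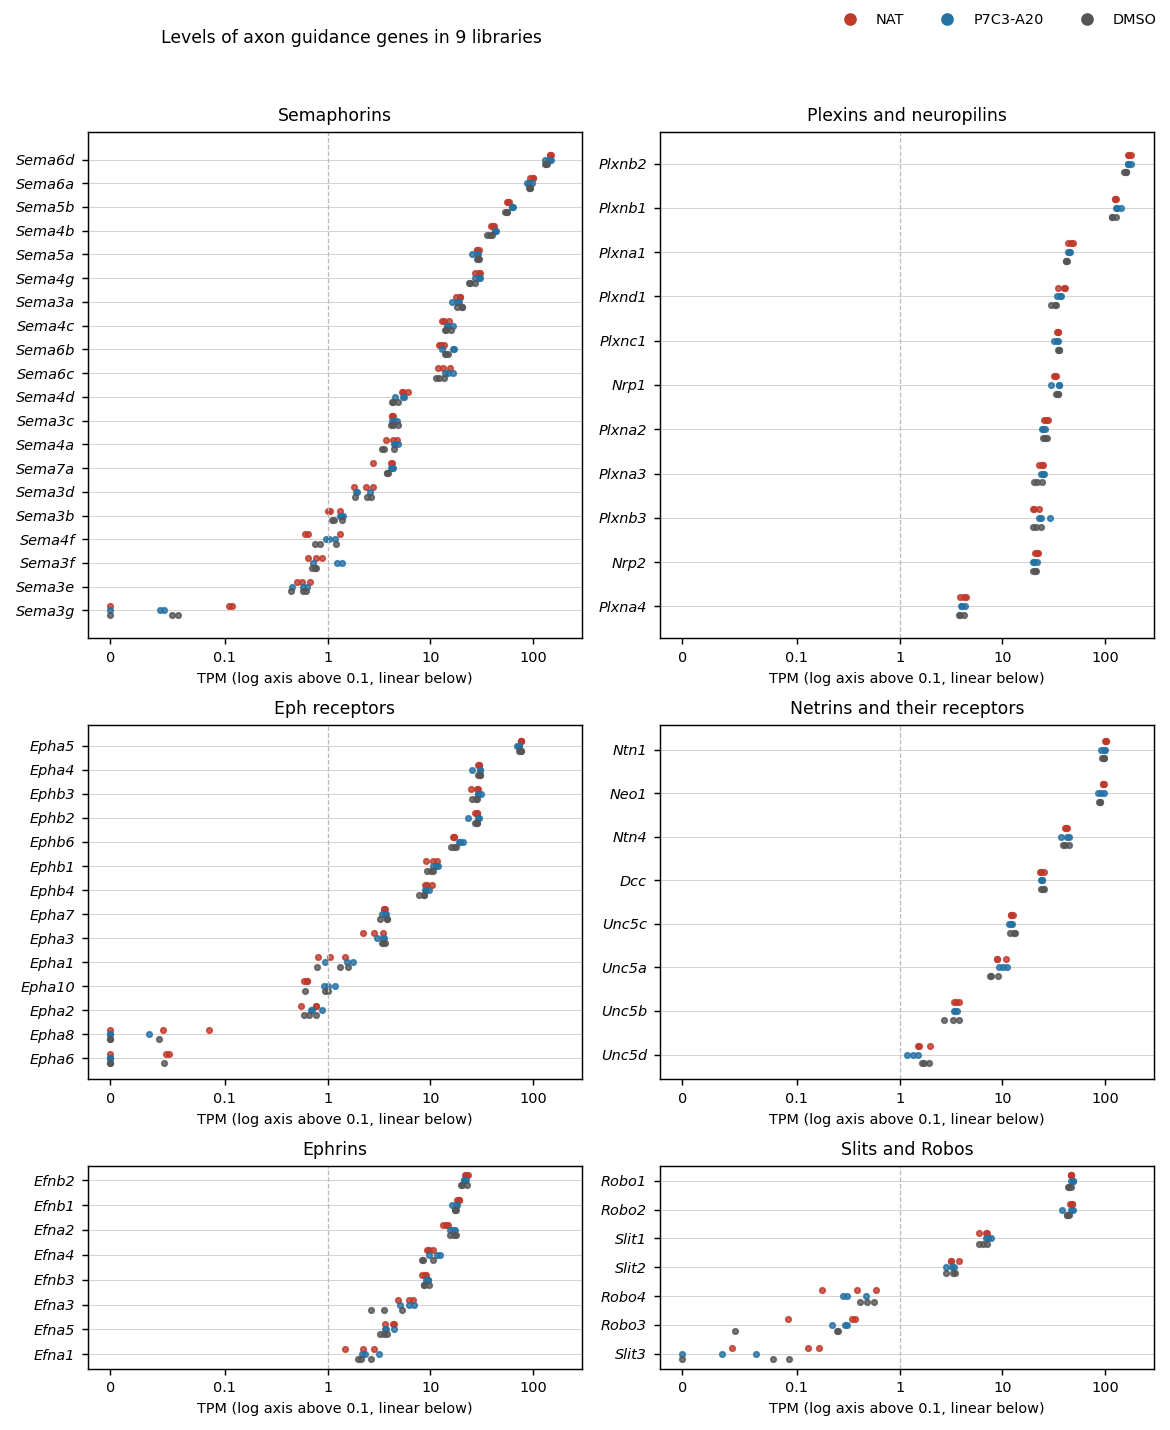
TPM of the 68 axon guidance genes (x axis, logarithmic above 0.1 TPM and linear below) by family, with 1 point per library, NAT in red, P7C3-A20 in blue and DMSO in grey. The dashed line marks 1 TPM, and Plxnb2, Sema6d and Plxnb1 lie to the right of 100 TPM in every library.

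Across the 58 tested members the groups were close to each other. With limma-trend on log2(TPM + 1), adjusted over 13839 genes, no member passed an adjusted p of 0.05 in NAT against DMSO, where 0.0289% of all genes did. None passed in P7C3-A20 against DMSO, where 0.0217% of all genes did, 0.00723% higher and 0.0145% lower. None passed in NAT against P7C3-A20, where 0% of all genes did. With voom on the recovered reads, 1 member (Sema5b) was called for P7C3-A20 against DMSO, where 248 of the 13839 genes were. None was called for NAT against DMSO, where 28 genes were, or for NAT against P7C3-A20, where 322 genes were. The intervals are on log2(TPM + 1), which understates changes of low genes, so for members near 1 TPM they do not bound the change in TPM itself. On that scale the 95% interval of the difference lay within 1.5-fold either way for 57 of the 58 members in each comparison. The exception was Efna3 in both comparisons with DMSO and Epha1 in NAT against P7C3-A20. All genes met that bound in 91.8%, 91.7% and 91.5% of cases in the same order of comparisons. At this depth and number of libraries, real differences could be missed. The intervals are not adjusted for the number of genes. That of Plxnd1 in NAT against DMSO, 0.1171 to 0.4241 on the log2 scale, excluded 0, and the gene was still not called.

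For NAT against DMSO, 9 members had an unadjusted p under 0.05, which is 15.5% against 11.7% of all genes. Of these 8 were higher in NAT, beside 8.67% of all genes, and 1 was lower, beside 3%. By family they were 3 of 17 semaphorins, 3 of 11 plexins and neuropilins, 2 of 8 ephrins, 1 of 8 netrins and netrin receptors, none of 10 Eph receptors and none of 4 Slits and Robos. The 3 NAT libraries lay wholly above the 3 DMSO libraries for 13 members, where 14.1% of all genes did so, and wholly below for 2, where 4.89% of all genes did so. The median log2 fold change of the members was 0.0367 beside 0.0305 for all genes, and 36 of 58 members were positive beside 63.5% of all genes. With quantile normalization 31 members were positive, and with voom 30, beside 50.8% and 50.4% of all genes.

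For P7C3-A20 against DMSO, 13 members had an unadjusted p under 0.05 (22.4%, against 15.9% of all genes), and every one of the 13 was higher in P7C3-A20. Of all genes, 10.7% were higher and 5.12% lower at that p. The 13 held 4 of 17 semaphorins, 4 of 11 plexins and neuropilins, 2 of 8 ephrins, and 1 each of the 10 Eph receptors, the 8 netrins and netrin receptors and the 4 Slits and Robos. The P7C3-A20 libraries lay wholly above the DMSO libraries for 14 members, beside 13.1% of all genes, and wholly below for 1, beside 7.49% of all genes. The median log2 fold change was 0.0728 for the members and 0.0149 for all genes, and 39 of 58 members were positive beside 55.2% of all genes. These counts ran with GC content, as described further on, and with each library's GC trend removed 2 members had an unadjusted p under 0.05, beside 11% of all genes. In that fit 37 of 58 members were positive, beside 49.4% of all genes, and the median was 0.0234, beside -0.000991 for all genes. Without DMSO replicate 1, in the main setting, 6 members had an unadjusted p under 0.05, beside 10.1% of all genes.

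For NAT against P7C3-A20, the comparison of the compounds at an equal dose, 5 members had an unadjusted p under 0.05 (8.62%, against 15.8% of all genes), all 5 lower in NAT, where 9.92% of all genes were higher and 5.89% lower. They were the semaphorins Sema5b and Sema6b, Plxnb3, Ephb6 and Efna2. The NAT libraries lay wholly above the P7C3-A20 libraries for 4 members, beside 13.3% of all genes, and wholly below for 5, beside 8.35% of all genes. The members had a median log2 fold change of -0.000198 beside 0.0114 for all genes, and 29 of 58 members were positive beside 54% of all genes. The comparisons share libraries, DMSO in the first pair and each compound in the last, so the values of a gene in them are not independent of each other. The count of 5 became 3 without NAT replicate 3, 10 without P7C3-A20 replicate 1 and 9 with the GC trends removed, beside 12.1%, 18.4% and 11.7% of all genes.

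**Figure D3:**
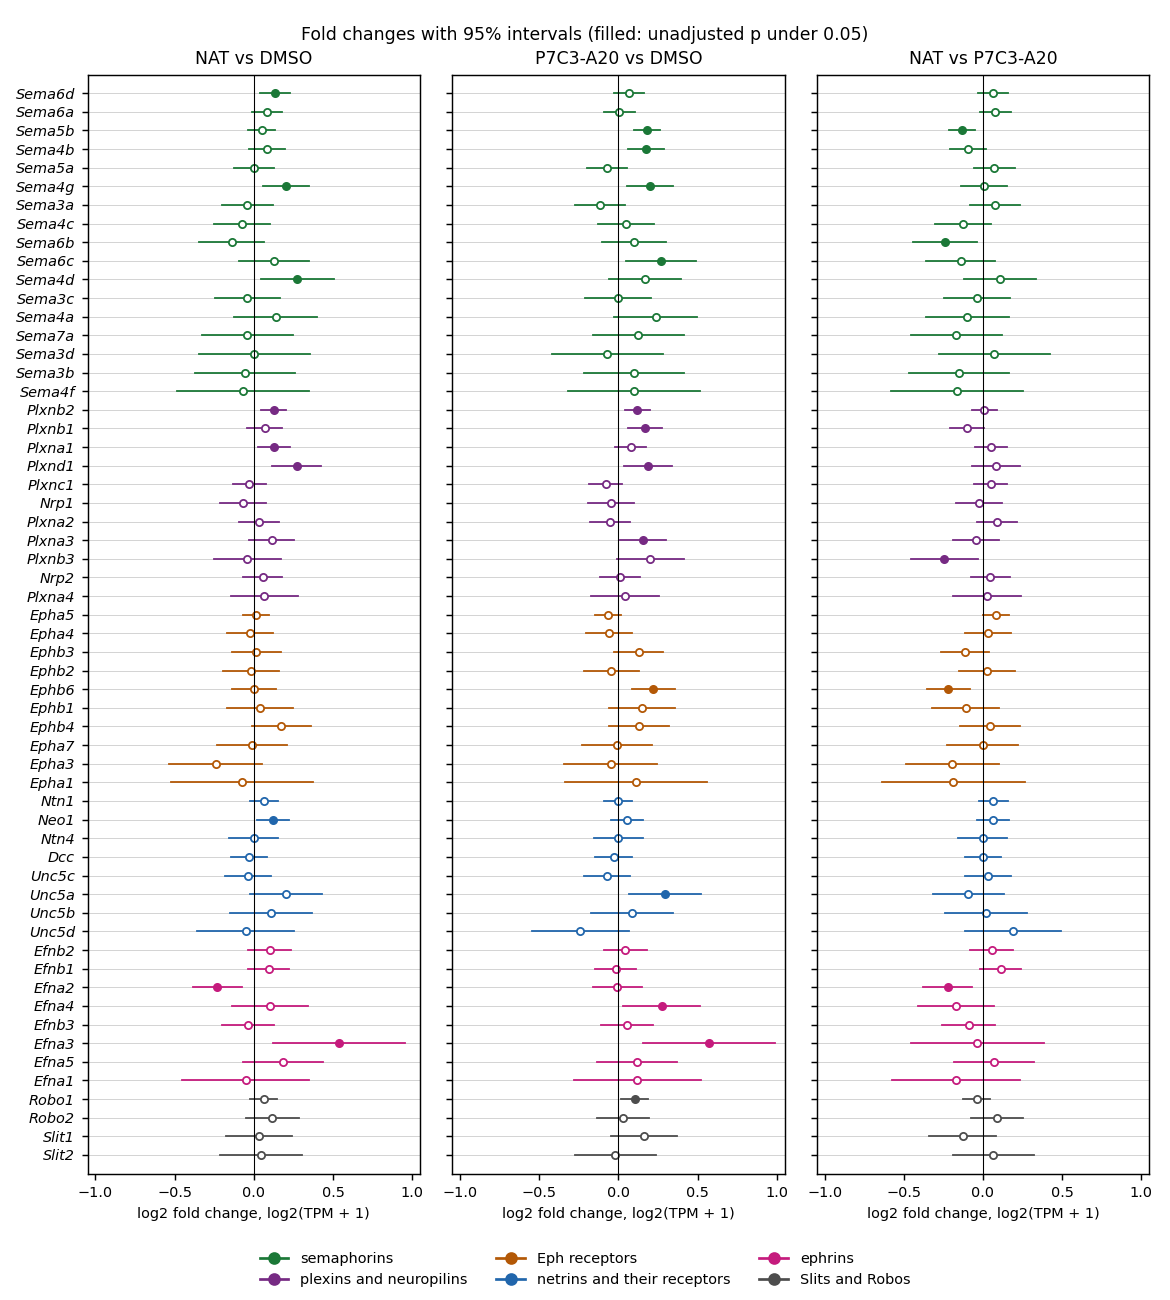
Log2 fold change on log2(TPM + 1) with its 95% interval (x axis) for the 58 tested axon guidance genes in NAT against DMSO, P7C3-A20 against DMSO and NAT against P7C3-A20, ordered by level within each family. Filled points have an unadjusted p under 0.05 (9, 13 and 5 genes). In both comparisons with DMSO, Epha1 has the widest interval and Efna3 the largest fold change.

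Among semaphorins, the transmembrane class 6 made up most of the expression, with a summed level of 270.1 ± 6.39 TPM in NAT, 263 ± 9.92 TPM in P7C3-A20 and 252 ± 4.99 TPM in DMSO (SD, n = 3 each). The secreted class 3, with its 7 members, summed to only 28.0 ± 0.656, 27.5 ± 2.16 and 28.7 ± 1.99 TPM in the same groups. Class 4 summed to 93.8 ± 3.04 TPM in NAT, 97.8 ± 2.13 TPM in P7C3-A20 and 86.8 ± 4.25 TPM in DMSO. Sema7a, the membrane-anchored ligand of Plxnc1, averaged 3.71, 4.24 and 3.79 TPM in these groups.

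Sema6d, which is known to bind Plxna1, had 145, 146 and 148 TPM in NAT, 147, 142 and 131 TPM in P7C3-A20 and 132, 131 and 137 TPM in DMSO libraries. The NAT values all lay above the DMSO values, whereas P7C3-A20 overlapped both. The log2 fold change was 0.13 ± 0.04 (SE) for NAT against DMSO, with an adjusted p of 0.2998. Its relative Sema6a, a ligand of Plxna2 and Plxna4, had 93.3, 99.6 and 98.4 TPM in NAT, 97.0, 91.7 and 87.3 TPM in P7C3-A20 and 92.1, 89.9 and 92.7 TPM in DMSO libraries. NAT was again above DMSO in every library, by a narrow gap, with a log2 fold change of 0.08 ± 0.04 and an adjusted p of 0.4727. The ratio of Sema6d to Sema6a was 1.51 ± 0.0457 in NAT, 1.52 ± 0.0219 in P7C3-A20 and 1.46 ± 0.0219 in DMSO. Sema6b had 12.2, 13.6 and 12.8 TPM in NAT and 13.0, 16.4 and 17.0 TPM in P7C3-A20 libraries, with 13.8, 14.9 and 14.3 TPM in DMSO. Replicate 1 of P7C3-A20 stood with the NAT values, so the compounds overlapped, and the log2 fold change of NAT against P7C3-A20 was -0.24 ± 0.09 with an adjusted p of 0.2625, and -0.15 with the GC trends removed.

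Sema5b, a transmembrane semaphorin with thrombospondin repeats known to repel axons, gave the lowest p of the 58 members. It had 56.7, 58.4 and 55.6 TPM in NAT, 61.7, 62.1 and 63.5 TPM in P7C3-A20 and 53.5, 55.6 and 55.9 TPM in DMSO libraries. The P7C3-A20 values were the 3 highest of the 9, and NAT and DMSO overlapped. The log2 fold change was 0.18 ± 0.04 for P7C3-A20 against DMSO (adjusted p = 0.1394) and -0.13 ± 0.04 for NAT against P7C3-A20 (adjusted p = 0.1947). With voom on the recovered reads the first of these was 0.17 with an adjusted p of 0.0432, the only call of a member in any alternative, and with the GC trends removed it was 0.08 with an adjusted p of 0.466, the ends of its range. The second was -0.05 with the GC trends removed. The transcript has a GC content of 60.2%. The other class 5 member, Sema5a, averaged 28.9 TPM in NAT, 27.5 TPM in P7C3-A20 and 28.9 TPM in DMSO.

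Sema4b, a class 4 transmembrane semaphorin, had 40.4, 41.9 and 38.5 TPM in NAT, 42.8, 43.5 and 42.6 TPM in P7C3-A20 and 35.7, 40.1 and 38.1 TPM in DMSO libraries. P7C3-A20 lay above both other groups in every library, with a log2 fold change against DMSO of 0.18 ± 0.05 and an adjusted p of 0.1751, and 0.09 with the GC trends removed. Sema4g, of the same class, had 27.0, 29.6 and 30.5 TPM in NAT, 27.2, 29.4 and 30.0 TPM in P7C3-A20 and 23.8, 24.4 and 27.0 TPM in DMSO libraries. The lowest NAT and P7C3-A20 libraries only just cleared the highest DMSO library. Its log2 fold change was 0.21 ± 0.07 for NAT (adjusted p = 0.3027) and 0.20 ± 0.07 for P7C3-A20 (adjusted p = 0.2051), each against DMSO, and the second was 0.11 with the GC trends removed. Sema4d, the ligand of Plxnb1, had 6.05, 5.44 and 5.34 TPM in NAT and 4.31, 4.22 and 4.86 TPM in DMSO libraries without overlap, with a log2 fold change of 0.28 ± 0.10 and an adjusted p of 0.3527. In class 3, Sema3a was at 18.9, 17.8 and 19.4 TPM on average in NAT, P7C3-A20 and DMSO, and no other class 3 member reached 5 TPM.

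Among the receptors of semaphorins, the B plexins summed to 317 ± 7.50 TPM in NAT, 329 ± 17.6 TPM in P7C3-A20 and 298 ± 8.90 TPM in DMSO. The A plexins, which pair with neuropilins, summed to 100.5 ± 2.42, 97.9 ± 0.506 and 93.8 ± 2.57 TPM in the same groups. The neuropilins together were at 54.1 ± 1.54, 54.0 ± 2.38 and 54.9 ± 1.04 TPM, so their group means lay within 1 SD of each other. Plxnc1 averaged 34.5 ± 0.406 TPM in NAT, 33.3 ± 1.65 TPM in P7C3-A20 and 35.2 ± 0.726 TPM in DMSO.

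Plxnb2, a plexin known for roles in neural progenitor migration and proliferation, had 167, 177 and 171 TPM in NAT, 167, 167 and 177 TPM in P7C3-A20 and 153, 159.9 and 157 TPM in DMSO libraries. All 6 libraries of compound-treated cells lay above the DMSO libraries. Against DMSO the log2 fold change was 0.13 ± 0.04 in NAT (adjusted p = 0.2599) and 0.12 ± 0.04 in P7C3-A20 (adjusted p = 0.1822), and between the compounds it was 0.01 with a 95% interval of -0.07 to 0.09. With the GC trends removed, the P7C3-A20 value was 0.03 and that between the compounds was 0.07. Plxnb1 had 123, 126 and 125 TPM in NAT, 131, 127 and 143 TPM in P7C3-A20 and 116, 115 and 126 TPM in DMSO libraries. P7C3-A20 was highest in every library, replicate 3 by far, with a log2 fold change against DMSO of 0.17 ± 0.05 and an adjusted p of 0.1778, and 0.08 with the GC trends removed. Plxnb3 had 20.2, 22.7 and 19.9 TPM in NAT, 23.5, 22.6 and 29.1 TPM in P7C3-A20 and 19.9, 21.2 and 23.7 TPM in DMSO libraries. Its P7C3-A20 mean rested on replicate 3, the groups overlapped, and the log2 fold change of NAT against P7C3-A20 was -0.24 ± 0.10 with an adjusted p of 0.2692, and -0.13 without that library.

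Plxnd1, the direct receptor of Sema3e, had 34.6, 39.7 and 40.8 TPM in NAT, 37.5, 36.7 and 34.1 TPM in P7C3-A20 and 29.4, 32.5 and 32.9 TPM in DMSO libraries. It had the lowest p of the members in NAT against DMSO, with every treated library above every DMSO library. The log2 fold change was 0.27 ± 0.07 for NAT (adjusted p = 0.2352, and 0.0635 to 0.558 over the alternatives) and 0.19 ± 0.07 for P7C3-A20 (adjusted p = 0.2406), which was 0.08 with the GC trends removed. Its ligand Sema3e averaged 0.578, 0.553 and 0.545 TPM in NAT, P7C3-A20 and DMSO and was not tested. Plxna1, a co-receptor of neuropilins, had 43.3, 46.4 and 48.0 TPM in NAT, 45.1, 44.1 and 43.6 TPM in P7C3-A20 and 41.8, 41.8 and 42.0 TPM in DMSO libraries. The DMSO values were nearly equal and lay under all others, with a log2 fold change of 0.13 ± 0.04 and an adjusted p of 0.3304 for NAT. Its exons overlap those of the opposite-strand gene model Gm26811 over 10.7% of their length, and the reads are not stated to carry a strand.

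Among the ephrins and Eph receptors, the A receptors summed to 114 ± 1.09 TPM in NAT, 111 ± 5.44 TPM in P7C3-A20 and 115 ± 2.07 TPM in DMSO, and the B receptors to 91.8 ± 2.45, 97.1 ± 1.65 and 90.2 ± 3.25 TPM. The ligands were lower, at 36.1 ± 0.469, 40.3 ± 3.34 and 35.4 ± 3.29 TPM for the membrane-anchored A ephrins and 49.8 ± 0.581, 48.1 ± 1.63 and 47.3 ± 1.21 TPM for the transmembrane B ephrins. Epha5, the most abundant Eph receptor, had 76.6, 75.3 and 76.1 TPM in NAT, 73.4, 73.0 and 69.2 TPM in P7C3-A20 and 75.9, 76.7 and 73.2 TPM in DMSO libraries. The NAT libraries lay above the P7C3-A20 libraries, with a log2 fold change of 0.08 ± 0.04 and an adjusted p of 0.3251, and this value was -0.009 once the GC trends were removed and 0.05 without P7C3-A20 replicate 3. Epha4, a receptor for ephrins of both classes, had 29.3, 29.6 and 28.7 TPM in NAT, 30.1, 30.6 and 25.3 TPM in P7C3-A20 and 30.2, 30.0 and 29.1 TPM in DMSO libraries. Apart from the low P7C3-A20 replicate 3, its 8 other values lay within 2 TPM of each other. That library was also the lowest of the 9 for Ephb2, Nrp1 and Robo2.

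Ephb6, a receptor whose kinase domain is inactive, had 17.0, 16.5 and 16.8 TPM in NAT, 19.5, 18.8 and 20.8 TPM in P7C3-A20 and 15.8, 17.8 and 16.8 TPM in DMSO libraries. All P7C3-A20 libraries lay above all others, and NAT lay inside the DMSO range. On the log2 scale, P7C3-A20 differed from DMSO by 0.22 ± 0.06 (adjusted p = 0.1719), and the log2 fold change was -0.22 ± 0.06 for NAT against P7C3-A20 (adjusted p = 0.1904). Its transcript has a GC content of 59.41%, and with the GC trends removed the value against DMSO was 0.12 and that of NAT against P7C3-A20 was -0.14. The remaining B receptors Ephb1, Ephb2, Ephb3 and Ephb4 averaged between 9.02 and 28.0 TPM over the 9 libraries, and none of the 4 had an unadjusted p under 0.05 in any comparison.

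Efna2, a membrane-anchored ligand of A receptors, was the member of lowest p among those lower in NAT than in DMSO. It had 14.7, 13.3 and 14.1 TPM in NAT, 15.7, 17.5 and 16.5 TPM in P7C3-A20 and 15.3, 17.0 and 17.6 TPM in DMSO libraries. All 3 NAT libraries lay under all 6 others. On the log2 scale, NAT differed by -0.23 ± 0.07 from DMSO (adjusted p = 0.2876) and by -0.22 ± 0.07 from P7C3-A20 (adjusted p = 0.2129). Over the 16 alternatives it ranged from -0.283 to -0.192 against DMSO, so it kept its sign, with an adjusted p of 0.221 to 0.558. The NAT libraries of Efna2 lay wholly under those of P7C3-A20, as did those of Ephb6, Sema5b, Sema4b and Plxnb1, beside 8.35% of all genes. Another 4 members lay wholly above, beside 13.3% of all genes. None of these passed the threshold over all genes.

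Efna3, another ligand of A receptors, had the largest fold change of the 58 tested members in both comparisons with DMSO, from few reads. It had 6.16, 4.82 and 6.77 TPM in NAT (35, 29 and 38 reads), 5.11, 6.18 and 6.94 TPM in P7C3-A20 (36, 47 and 49 reads) and 2.65, 5.34 and 3.57 TPM in DMSO libraries (15, 28 and 22 reads). DMSO replicates 1 and 3 were the lowest of the 9, while replicate 2 fell among the treated libraries. Against DMSO, NAT differed by 0.54 ± 0.19 (adjusted p = 0.3373) and P7C3-A20 by 0.57 ± 0.19 (adjusted p = 0.2047) on the log2 scale. Without DMSO replicate 1 the value for NAT was 0.35. Its exons overlap the opposite-strand gene model Gm15998 over 14.6% of their bases, and the library kit is not stated to mark strand. Efna1, Efna3 and Efna4 lie next to each other on chromosome 3 with no protein-coding gene between them in RefSeq, at 2.33, 5.28 and 10.1 TPM on average. Efna4 averaged 9.83 ± 0.712 TPM in NAT, 11.2 ± 1.36 TPM in P7C3-A20 and 9.12 ± 1.28 TPM in DMSO, and Efna1 averaged between 2.18 and 2.55 TPM in each group.

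Of the transmembrane ligands, Efnb2 had 22.3, 23.2 and 21.6 TPM in NAT, 21.2, 22.0 and 21.2 TPM in P7C3-A20 and 22.7, 19.8 and 20.1 TPM in DMSO libraries. The groups overlapped. Efnb1 had 19.1, 18.2 and 18.9 TPM in NAT, 16.1, 17.8 and 17.9 TPM in P7C3-A20 and 17.4, 17.4 and 17.7 TPM in DMSO libraries. NAT lay above the other groups in every library, with a log2 fold change against DMSO of 0.09 ± 0.06 and an adjusted p of 0.5465.

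Among the netrins and their receptors, Ntn1 had 101, 99.3 and 101 TPM in NAT, 98.0, 98.5 and 90.7 TPM in P7C3-A20 and 92.0, 97.8 and 97.4 TPM in DMSO libraries. NAT was above both other groups by a small margin, with a log2 fold change against DMSO of 0.07 ± 0.04 and an adjusted p of 0.5514. Ntn4, a laminin-binding netrin of basement membranes, averaged 41.4 ± 0.959 TPM in NAT, 41.6 ± 3.99 TPM in P7C3-A20 and 41.5 ± 2.86 TPM in DMSO. The most abundant netrin receptor, Neo1, had 94.2, 95.3 and 96.8 TPM in NAT, 97.8, 90.6 and 85.5 TPM in P7C3-A20 and 86.4, 88.2 and 88.7 TPM in DMSO libraries. NAT cleared DMSO in every library, by 0.12 ± 0.05 on the log2 scale (adjusted p = 0.3648), and P7C3-A20 spanned both. Dcc, the attractive netrin receptor, averaged 24.0 ± 1.11 TPM in NAT, 24.0 ± 0.361 TPM in P7C3-A20 and 24.6 ± 0.823 TPM in DMSO. The Unc5 receptors together were at 27.1 ± 1.21, 27.1 ± 0.715 and 25.9 ± 0.558 TPM in these groups. Of them Unc5a had 9.31, 10.2 and 11.2 TPM in P7C3-A20 and 7.79, 7.64 and 9.06 TPM in DMSO libraries, with a log2 fold change of 0.29 ± 0.10 and an adjusted p of 0.221, and 0.18 with the GC trends removed.

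Among Slits and Robos the receptors were far above the ligands. The Robos summed to 94.0 ± 1.40 TPM in NAT, 92.7 ± 6.48 TPM in P7C3-A20 and 88.3 ± 1.28 TPM in DMSO, and the Slits to 10.1 ± 0.778, 10.5 ± 0.633 and 9.70 ± 0.748 TPM. Robo1 had 46.4, 46.9 and 46.3 TPM in NAT, 48.6, 48.2 and 46.8 TPM in P7C3-A20 and 43.9, 43.8 and 45.9 TPM in DMSO libraries. All treated libraries lay above the DMSO libraries, with a log2 fold change of 0.10 ± 0.04 and an adjusted p of 0.2455 for P7C3-A20. Robo2, the neighbouring gene on chromosome 16 with no protein-coding gene between them, had 47.3, 47.3 and 45.8 TPM in NAT, 48.6, 46.1 and 38.0 TPM in P7C3-A20 and 44.7, 42.2 and 42.4 TPM in DMSO libraries. NAT lay above DMSO throughout, and P7C3-A20 held both the highest and the lowest value. The neighbours were thus at nearly the same level, with a ratio of Robo1 to Robo2 of 0.994 ± 0.0145 in NAT, 1.09 ± 0.122 in P7C3-A20 and 1.03 ± 0.05 in DMSO. Of the ligands, Slit1 averaged 6.62 ± 0.584 TPM in NAT, 7.32 ± 0.461 TPM in P7C3-A20 and 6.44 ± 0.569 TPM in DMSO, and Slit2 averaged 3.34 ± 0.346, 3.15 ± 0.279 and 3.21 ± 0.32 TPM. The other adjacent Robo pair, Robo4 and Robo3 on chromosome 9, averaged 0.408 and 0.241 TPM.

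**Figure D4:**
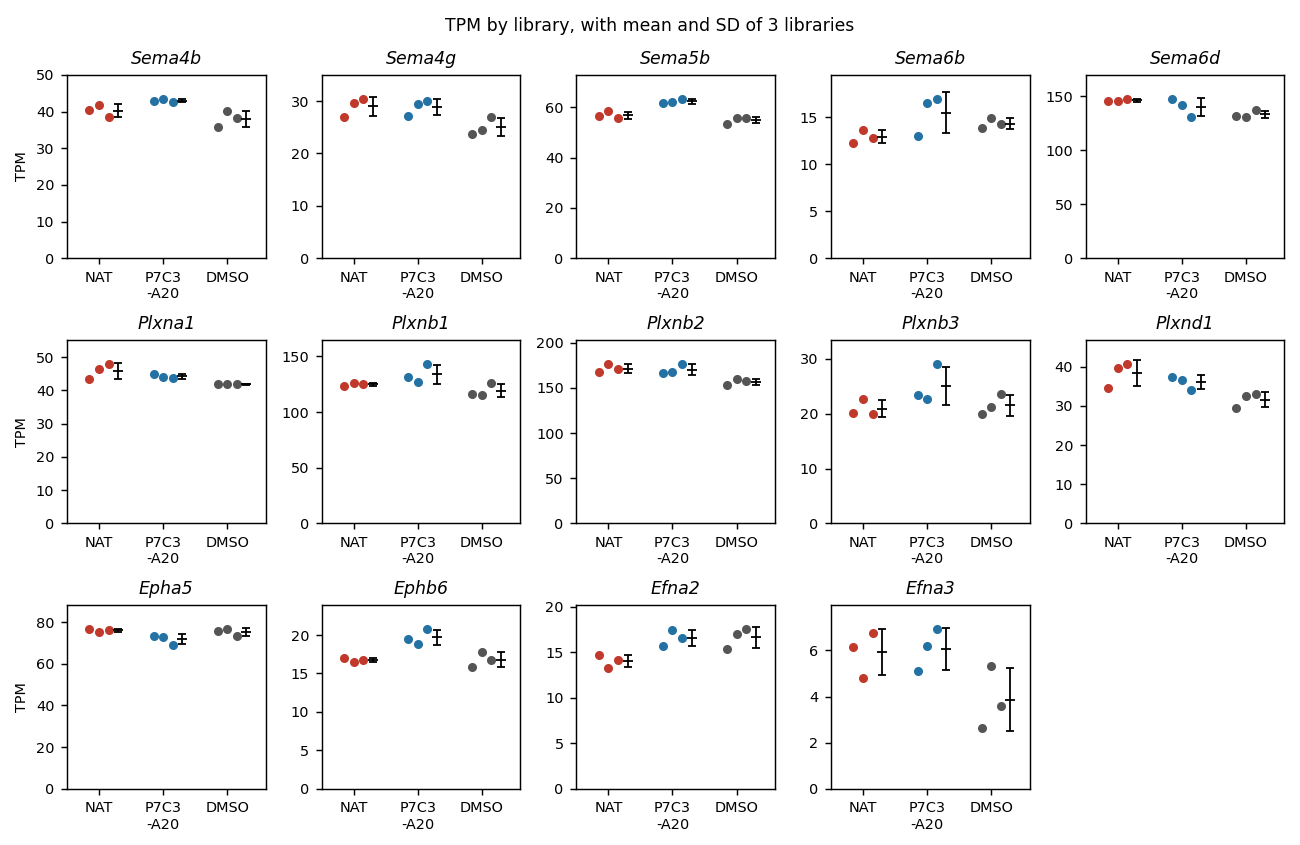
TPM (y axis, from 0) in each library for the 14 axon guidance genes of lowest p in the 3 comparisons, with NAT in red, P7C3-A20 in blue and DMSO in grey, and with the mean and SD of 3 libraries as a bar beside each group. Sema5b and Ephb6 are highest in the 3 P7C3-A20 libraries, Efna2 is lowest in the 3 NAT libraries, and 1 DMSO library of Efna3 at 5.34 TPM lies among the treated ones.

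The differences between P7C3-A20 and the other groups ran with the GC content of the transcripts. The members are GC-rich and long, with a median GC content of 55.11% and a median length of 5668 bases, against 49.69% and 3342.5 bases for all genes tested. In each library, the deviation of genes from their own means over the 9 libraries was fitted on GC content. The sign of a slope is thus relative to the other libraries. In log2 units per 10 percentage points, the slopes were -0.0619, 0.00716 and -0.0302 in NAT, 0.0159, 0.0366 and 0.114 in P7C3-A20 and -0.0524, -0.0224 and -0.00654 in DMSO libraries. The 3 P7C3-A20 slopes were the 3 steepest upward of the 9, replicate 3 most of all. Across genes, which are not independent replicates, Spearman's rho between GC content and the log2 fold change of P7C3-A20 against DMSO was 0.667 over the 58 members and 0.479 over 13712 genes. The same measure was 0.229 and 0.00677 when NAT was set against DMSO, and -0.449 and -0.47 when NAT was set against P7C3-A20.

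In P7C3-A20 against DMSO, the 29 members at or above the median GC content had a median log2 fold change of 0.128, with 25 positive and 11 of the 13 members of unadjusted p under 0.05. The 29 members under it had a median of -0.000602, with 14 positive and 2 of unadjusted p under 0.05. With the trend removed from each library, the median over all 58 was 0.0234 and rho was 0.22. The part of the GC trend in the single differences was not tested beyond this. NAT against DMSO showed no such trend over all genes, and the members had medians of 0.0652 in the 29 GC-rich and 0.0138 in the 29 GC-poor members.

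**Figure D5:**
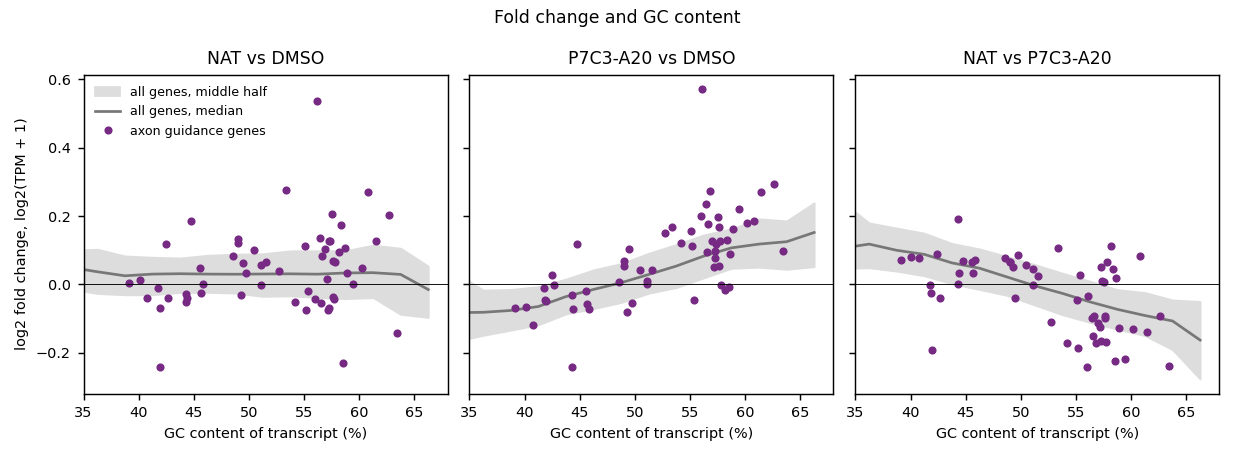
GC content of the transcript (x axis, percent) and log2 fold change on log2(TPM + 1) (y axis) for the 58 tested axon guidance genes (purple points) in each comparison, with the median (line) and the interquartile range (band) of all genes. For P7C3-A20 against DMSO the members follow the line upward, with a rho of 0.667, and for NAT against P7C3-A20 downward, with a rho of -0.449.

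The spread between replicates was close to that of all genes above the same bound of 10 TPM. The genes were not matched for level, with medians of 28.0 TPM for these members and 42.8 TPM for all genes. The median coefficient of variation within groups was 4.837% for the 37 members of at least 10 TPM and 4.828% for the 10024 genes of at least 10 TPM. Among the 58 tested members it was smallest for Robo1 (1.985%), Sema5b (2.116%) and Epha5 (2.345%) and largest for Epha1 (31.17%) and Sema4f (29.39%), which lie near 1 TPM.

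The rest of the guidance pathway was described from a list of 51 intracellular signalling genes and a list of 28 other cues and adhesion molecules. Of the 49 signalling genes tested, none passed an adjusted p of 0.05 in any comparison. An unadjusted p under 0.05 was found for 14 in NAT against DMSO, 8 in P7C3-A20 against DMSO and 14 in NAT against P7C3-A20, beside 11.7%, 15.9% and 15.8% of all genes. Of the first 14, 12 (24.5% of the 49) were higher in NAT and 2 (4.08%) lower, beside 8.67% and 3% of all genes. In P7C3-A20 against DMSO, 7 (14.3%) were higher and 1 (2.04%) lower, beside 10.7% and 5.12%. In NAT against P7C3-A20, 9 (18.4%) were higher in NAT and 5 (10.2%) lower, beside 9.92% and 5.89%. The lowest p values in NAT against DMSO belonged to the kinase gene Pak3, to Farp1 and to Dpysl3, which encodes a collapsin response mediator protein. Pak3 averaged 42.0 ± 0.448 TPM in NAT and 49.3 ± 0.769 TPM in DMSO, with a log2 fold change of -0.23 ± 0.04 and an adjusted p of 0.2074. It was called with voom (adjusted p = 0.001745) and with the GC trends removed (adjusted p = 0.03812). Farp1 averaged 85.6 TPM in NAT and 79.0 TPM in DMSO (0.11 ± 0.04 on the log2 scale), and Dpysl3 averaged 338 TPM in NAT and 363 TPM in DMSO (-0.10 ± 0.03).

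In P7C3-A20 against DMSO, the lowest p values among signalling genes were those of Cdk5, Farp1 and Mical2. Cdk5, a kinase that phosphorylates collapsin response mediators, averaged 100.5 ± 4.30 TPM in P7C3-A20 and 86.0 ± 4.57 TPM in DMSO, with a difference of 0.22 ± 0.05 on the log2 scale (adjusted p = 0.1394). Mical2, of a family of actin-oxidising enzymes, averaged 24.8 TPM in P7C3-A20 and 20.6 TPM in DMSO (0.26 ± 0.08), and Farp1 87.7 and 79.0 TPM (0.15 ± 0.04). Cdk5 and Mical2 were called with voom. In NAT against P7C3-A20, Cdk5 averaged 85.2 ± 2.15 TPM in NAT and 100.5 ± 4.30 TPM in P7C3-A20, with a difference of -0.24 ± 0.05 on the log2 scale (adjusted p = 0.1684). Rnd2 averaged 219.9 and 256 TPM in these groups (-0.22 ± 0.05), and Dpysl2 174 and 151 TPM (0.21 ± 0.06).

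Of the 22 other cues tested, none passed an adjusted p of 0.05 in any comparison either. In the same order of comparisons, 2, 4 and 4 (9.09%, 18.2% and 18.2%) had an unadjusted p under 0.05, beside 11.7%, 15.9% and 15.8% of all genes. The lowest p values in NAT against DMSO were those of the adhesion molecule Nfasc, which averaged 41.2 TPM in NAT and 37.2 TPM in DMSO, of Rgma, a Neo1 ligand, at 376 and 346 TPM, and of Draxin, a secreted repellent that binds Dcc, at 105 and 111 TPM. The 2 cues of unadjusted p under 0.05 in that comparison were both higher in NAT, so Draxin was not among them. In P7C3-A20 against DMSO they were those of Rgma at 388 and 346 TPM, the glypican Gpc1 at 178 and 159 TPM and the adhesion molecule Chl1 at 73.9 and 82.3 TPM. In NAT against P7C3-A20 they were those of Chl1 at 90.1 ± 1.69 TPM in NAT and 73.9 ± 7.91 TPM in P7C3-A20 (0.29 ± 0.07 on the log2 scale, adjusted p = 0.1684), Nrcam at 131 and 118 TPM and Draxin at 105 and 113 TPM.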

How the data were processed

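RNA was sequenced in 9 libraries made with Illumina's TruSeq RNA kit, as the labels' protocols state. The values deposited by the authors are TPM for 23420 gene symbols, summing to 1000000 in each library. Bowtie 0.12.2 and the builds mm8 and mm9 appear in the submitters' processing notes, without a role. Which counter and annotation were used is not given in the sources used here. Reads are not stated to carry a strand, so overlapping and antisense genes are uncertain.

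The steps of the TPM values gave whole reads for all 19302 genes with any value (tolerance 0.001). These set the depth and entered voom, which called 28 genes in NAT against DMSO, 248 in P7C3-A20 against DMSO and 322 in NAT against P7C3-A20. The main test was limma-trend (limma 3.58.1 in R 4.3.3) on log2(TPM + 1), a scale that understates changes of low genes, over the 13839 genes at 1 TPM or above in 3 or more libraries. A single fit held the 9 libraries, with group as its factor and 6 residual degrees of freedom. Two-sided p-values were adjusted over all genes (Benjamini-Hochberg) and called below 0.05. Values after ± are SD for TPM and SE for log2 fold changes. The fits were checked on simulated reads with known fold changes and no GC trend, so that check does not cover the GC trends described above. GC content and length are those of the longest GENCODE vM21 transcript (GRCm38). Plots and tables used Python 3.11.15, pandas 2.3.3, numpy 2.4.6 and matplotlib 3.10.9.

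The members and gene lists were chosen with earlier results of these data known. Values in all libraries are given for the 2 highest members of each family and the 6 members of lowest p in each comparison, and in part for further members, chosen after their values were seen. In the pathway lists the 3 genes of lowest p are named, and in the marker lists those listed at 0 and those that dominate a sum. Alternatives are given at the end.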

Additional observations from a re-analysis of the deposited data

How the results depend on the processing

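For the members, 16 alternatives were run in each comparison: a replicate block, a replicate block with the GC trend removed, the GC trend removed (a spline with 5 degrees of freedom), quantile normalization, no filter, a minimum of 5 TPM, a pseudocount of 0.1, the 6 compared libraries alone, robust empirical Bayes, voom on recovered reads, and each replicate left out. The count of members called was 0 in all of them, except for 1 (Sema5b) with voom in P7C3-A20 against DMSO. Of the other pathway genes, 1 was called in NAT against DMSO with voom and 1 with the GC trend removed (Pak3 both times), 2 with voom in P7C3-A20 against DMSO (Cdk5 and Mical2) and 5 with voom in NAT against P7C3-A20 (Rnd2, Dpysl2, Cdk5, Chl1 and Pak3). The cause was not tested. In NAT against P7C3-A20, the difference of Epha5 changed sign, at -0.009005 with the GC trend removed and -0.009005 with the replicate block and the GC trend removed, and that of Plxnb2, near 0, was -0.002479 with quantile normalization and -0.004837 with voom. Leaving out each replicate gave 6 to 11 members of unadjusted p under 0.05 in NAT against DMSO, beside 8.07 to 12.1% of all genes. It gave 6 to 16 in P7C3-A20 against DMSO, beside 10.1 to 17.8%, and 3 to 10 in NAT against P7C3-A20, beside 9.55 to 18.4%. The number called was 0 each time. In NAT against P7C3-A20 the count of unadjusted p under 0.05 was 8 with voom, beside 17.9% of all genes. It was also 8 with the replicate block and the GC trend removed, beside 12.2%. Under the block and GC removal it was 6 in P7C3-A20 against DMSO, beside 11.7%. Libraries with the same replicate number did not deviate together (r from -0.062 to 0.067). This cannot show whether they shared a culture or litter, which the labels do not state. With the replicate block 0 members were called in each comparison, and 11, 15 and 6 had an unadjusted p under 0.05, beside 12.2%, 17.4% and 17.5% of all genes. The median log2 fold change of the members in NAT against DMSO was 0.00294 with quantile normalization and 0.00606 with voom, where all genes had 0.00194 and 0.000898. Depth limits the members under 1 TPM, with 0 to 37 reads per library.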
